A study of Homo sapiens with 16 samples.

Results

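The genes described here are 33 listed genes of protein folding and stress in the endoplasmic reticulum, chosen by name, and all 33 stood in the count table of 20114 genes. They comprise 10 chaperones and cochaperones, 2 lectin chaperones, 6 disulfide and prolyl isomerases, 5 sensors and signalling genes, 8 genes of degradation and 2 genes of the translocon. All 33 also passed the filter on low counts, which kept 14035 genes. RNA was sequenced from Hs578, a breast cancer line, and from TT642, which is labelled as rhabdoid tumour cells at its source but counted with Hs578 among triple-negative breast cancer lines in the series design. Each line was sequenced as parental cells with no hairpin and as 3 derived lines, each with a doxycycline-inducible short hairpin RNA against PRRX1, a homeobox transcription factor of mesenchymal cells. The derived lines are numbered shPRRX1_1 to shPRRX1_3, which were read as 3 different hairpins. Each was sequenced once without doxycycline and once with 3 µg/ml, which gave 16 libraries in 8 groups, with 3 libraries per hairpin group and 1 per parental group. Separate cultures are not stated, so the p-values reflect the spread of these samples alone. That spread may hold differences between the hairpins and derived lines as well as technical ones.

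Proteins bound for secretion or for membranes enter the endoplasmic reticulum through the translocon, are folded there by chaperones and isomerases, and are sent back to the cytosol for degradation when folding fails. The sensors in the membrane of the reticulum, encoded by ERN1 (IRE1), ATF6 and EIF2AK3 (PERK), respond to unfolded protein. IRE1 splices the messenger of XBP1, ATF6 is cut to release a transcription factor, and PERK slows translation and raises ATF4. The targets of these arms include most of the chaperones described here. Gene-level counts do not show splicing of XBP1, cleavage of ATF6 or phosphorylation of either kinase.

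Total counts ran from 13461527 to 24672906 per library. In the induced lines, PRRX1 stood at 12.7%, 32.1% and 19.5% of the uninduced level of the same line in Hs578 and at 21.8%, 13.03% and 39.4% in TT642, against 103% in both parental pairs. Its log2 fold change was -2.28 (SE 0.37, adjusted p = 0.0022, edgeR) in Hs578 and -2.03 (SE 0.36, adjusted p = 0.17, edgeR) in TT642. SMARCB1, a gene typically lost in rhabdoid tumours, stood at 87.7 to 125 CPM (counts scaled to the effective library size) in Hs578 and at 28.8 to 41.6 CPM in TT642. Of the 8 luminal and epithelial markers, EPCAM, CDH1 and KRT19 stayed under 1 CPM in both lines, while the keratins KRT18 (185 to 401 CPM) and KRT8 (27.7 to 56.4 CPM) were present in Hs578 and at most at 1.54 CPM in TT642, and ERBB2 was present in both (69.9 to 78.8 and 109.7 to 173 CPM). Of the 8 mesenchymal markers, 6 were higher and 2 lower in uninduced Hs578 than in TT642. VIM stood at 4081 to 5874 CPM in Hs578 and at 9915 to 11007 CPM in TT642, whereas FN1 stood at 10219 to 17802 CPM in Hs578 and at 0.19 to 3.96 CPM in TT642. Blood cell markers summed to 43.7 to 105 CPM in Hs578 and 12.2 to 17.2 CPM in TT642, nearly all of it CD68, with CD3E at 0 throughout. Endothelial markers summed to 9.38 to 15.7 CPM in Hs578, mostly ERG, and to at most 0.33 CPM in TT642. The mitochondrial share of counts was 2.16% to 2.79% in Hs578 without doxycycline and 3.18% to 5.44% with it, against 2.59% to 3.98% in all TT642 libraries, and the part of this shift in the results was not tested. The 33 genes together took 1.25% to 1.38% of the counts in Hs578 and 0.957% to 1.097% in TT642. In bulk samples, fewer cells of a type and less RNA per cell cannot be told apart.

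The sequences upstream of these genes hold the elements by which the sensors are known to act, and they are shown because genes with the same element moved in different directions below. RefSeq promoter windows (GRCh38.p14, 250 bases before to 50 bases after the start) matched 30 of the 33 genes by symbol, and PDIA3, DERL1 and FKBP14 were not matched. The counts were made on hg19, so these coordinates are used for the sequences alone. Both strands were searched. The ERSE, which is bound by ATF6 and XBP1 together with NF-Y, was searched as CCAAT, any 9 bases and CCACG. It stood in 7 of the 30 matched genes, against 0.0769% of the 35116 windows of all genes. Here and below the listed genes are counted as genes and the background as windows. A gene may have more than 1 window, so the 2 units differ. ERSE-II, searched as ATTGG, any 1 base and CCACG, stood in 3 of the 30, against 0.0541% of all windows. The XBP1 element UPRE, written TGACGTGG, stood in 1 (HYOU1), against 0.729% of all windows, and overlapped an ERSE-II there. The ATF4 element, written TGATGNAAN, stood in 1 (HERPUD1), against 3.61%. These elements were defined on genes such as HSPA5, so matches in the set are a description. Matches are printed 5′ to 3′ on the strand of the gene with 5 flanking bases on each side, and capitals mark the fixed bases of the element.
HSPA5, ERSE, chr9:125241386-125241414, minus strand: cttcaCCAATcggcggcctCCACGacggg
XBP1, ERSE, chr22:28800598-28800626, minus strand: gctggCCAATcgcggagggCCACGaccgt
PDIA6, ERSE, chr2:10812848-10812876, minus strand: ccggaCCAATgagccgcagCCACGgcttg
CANX, ERSE, chr5:179698773-179698801, plus strand: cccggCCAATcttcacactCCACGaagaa
HSP90B1, ERSE, chr12:103930211-103930239, plus strand: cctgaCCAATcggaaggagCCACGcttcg
CALR, ERSE in the opposite orientation, chr19:12938379-12938407, plus strand: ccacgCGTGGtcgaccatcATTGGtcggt
CRELD2, ERSE in the opposite orientation, chr22:49918549-49918577, plus strand: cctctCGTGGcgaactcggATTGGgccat
SDF2L1, ERSE-II in the opposite orientation, chr22:21642109-21642129, plus strand: ggaagCGTGGaCCAATcaaaa
HYOU1, ERSE-II in the opposite orientation, chr11:119057269-119057289, minus strand: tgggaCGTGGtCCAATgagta
HERPUD1, ERSE-II, chr16:56932020-56932040, plus strand: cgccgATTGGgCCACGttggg
HERPUD1, ATF4 element in the opposite orientation, chr16:56931960-56931978, plus strand: ggcgggTTgCATCAgcccg
HSP90B1 held a second ERSE and HYOU1 a second ERSE-II, which are not printed. The UPRE of HYOU1, which overlaps that second ERSE-II, is not printed either. Of the 10 genes with an ERSE or ERSE-II, CALR, CRELD2 and SDF2L1 rose with doxycycline in the Hs578 hairpin lines, CANX and HERPUD1 fell, and HSPA5, HSP90B1, PDIA6, XBP1 and HYOU1 did not pass the test. Of all genes tested, 15.2% were called higher and 14.1% lower. In a fit with transcript length and GC content as offsets, CALR, CRELD2 and SDF2L1 lost their calls, SDF2L1 with a change of sign. CANX and HERPUD1 kept theirs there, and XBP1 was called lower.

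The first comparison asks how these genes responded when the hairpins were induced in Hs578. With doxycycline, 10 of the 33 genes rose (DNAJB11, SIL1, SDF2L1, MANF, CRELD2, CALR, P4HB, PDIA3, PDIA5 and SEC61B) and 7 fell (CANX, ATF6, PPP1R15A, EDEM1, EDEM3, SEL1L and HERPUD1) at an adjusted p under 0.05 in edgeR's quasi-likelihood test with Benjamini-Hochberg adjustment over all 14035 genes. Of all genes tested, 29.3% were called, 15.2% higher and 14.1% lower, so the count of 17 of 33 stands against a background that was itself wide. The median log2 fold change of the 33 genes was 0.01, from -0.72 (PPP1R15A) to 0.68 (SIL1). By role, 5 of 10 chaperones and cochaperones, 3 of 6 isomerases and 1 of 2 translocon genes rose and none of these 18 fell. Among the other roles, 2 of 5 sensors and signalling genes and 4 of 8 degradation genes fell and none of these 13 rose. The 2 lectin chaperones split, as CALR rose and CANX fell.

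**Figure D1:**
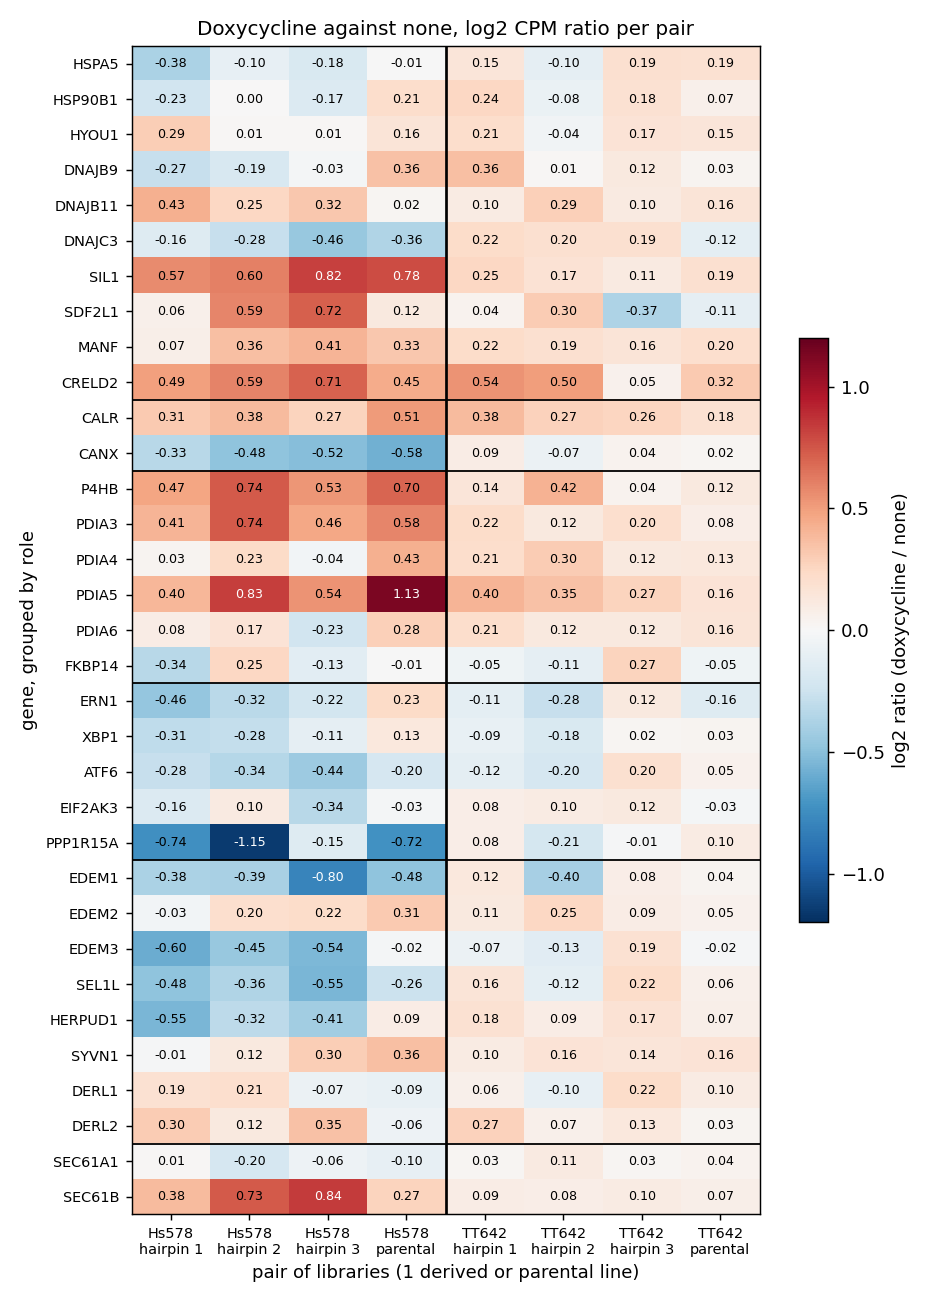
Each cell gives the log2 ratio of CPM with doxycycline over none for 1 gene (rows, grouped by role) in 1 pair of libraries (columns, 3 hairpin lines and the parental line of each cell line), with red above and blue below 0. The isomerases P4HB, PDIA3 and PDIA5 are red and CANX, ATF6, EDEM1 and SEL1L are blue in all 4 Hs578 pairs, while the ratios of the 4 TT642 pairs lie between -0.40 and 0.54.

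PDIA5, a disulfide isomerase, stood at 81.7, 79.6 and 89.3 CPM in the uninduced Hs578 lines with hairpins 1, 2 and 3, and at 108, 141 and 129.6 CPM in the induced ones. All induced lines were above all uninduced lines, and the log2 fold change was 0.59 (SE 0.093, adjusted p = 0.00087, edgeR). PDIA3 (ERp57), which works with calnexin and calreticulin on glycoproteins, stood at 522, 514 and 564 CPM without doxycycline and at 692, 858 and 778 CPM with it (log2 fold change 0.54, SE 0.092, adjusted p = 0.0013, edgeR). P4HB, the archetypal disulfide isomerase and a subunit of prolyl 4-hydroxylase, stood at 935, 984 and 1008 CPM without and at 1298, 1643 and 1449.9 CPM with doxycycline. Its groups did not overlap either, and its log2 fold change was 0.58 (SE 0.11, adjusted p = 0.0024, edgeR). Of the other isomerases, PDIA4 had a log2 fold change of 0.08 (SE 0.080), PDIA6 of 0.01 (SE 0.085) and the prolyl isomerase FKBP14 of -0.08 (SE 0.11), and none of these passed the test. With length and GC offsets FKBP14 changed sign (0.19, SE 0.084) and was not called either.

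Among the chaperones and cochaperones, the major Hsp70 of the reticulum, HSPA5 (BiP), stood at 1288, 1149.7 and 1239 CPM without doxycycline and at 992, 1073 and 1089.9 CPM with it. Every induced line was below every uninduced line, but the log2 fold change of -0.22 (SE 0.091) did not pass the test (adjusted p = 0.081, edgeR). It was called lower in 4 of 18 alternatives, namely relative log expression scaling, DESeq2 and both FPKM fits, with values of -0.25 to -0.32. SIL1, a nucleotide exchange factor of HSPA5, went the other way, from 31.0, 33.7 and 35.4 CPM to 46.2, 51.2 and 62.5 CPM, with no overlap (log2 fold change 0.68, SE 0.11, adjusted p = 0.00089, edgeR). CRELD2, a secreted stress-induced protein, rose from 28.3, 33.5 and 33.9 CPM to 39.8, 50.6 and 55.5 CPM (log2 fold change 0.61, SE 0.13, adjusted p = 0.0038, edgeR). DNAJB11, a J-domain cochaperone of HSPA5, rose from 158, 166 and 165 CPM to 213, 197 and 206 CPM (log2 fold change 0.33, SE 0.094, adjusted p = 0.016, edgeR).

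MANF, a cochaperone released under stress, and SDF2L1, a partner of DNAJB11, passed the test only narrowly. MANF stood at 114, 111 and 116 CPM without doxycycline and at 119.7, 142 and 153 CPM with it (log2 fold change 0.28, SE 0.098, adjusted p = 0.042, edgeR). SDF2L1 stood at 13.1, 13.3 and 14.5 CPM without and at 13.7, 20.1 and 23.9 CPM with doxycycline, so that its groups overlapped in hairpin 1 (log2 fold change 0.50, SE 0.18, adjusted p = 0.047, edgeR). Each lost the call in 13 of 18 alternative settings, changed sign in 2 and kept the call in 3. The remaining chaperones did not pass: HSP90B1 (GRP94) had a log2 fold change of -0.13 (SE 0.10), HYOU1 of 0.11 (SE 0.088), DNAJB9 of -0.17 (SE 0.11) and DNAJC3 of -0.29 (SE 0.11).

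Calnexin and calreticulin, the lectin chaperones that hold glycoproteins in the folding cycle, moved in opposite directions. CANX, the membrane-bound one, stood at 1965, 1851 and 1861 CPM without doxycycline and at 1561, 1324 and 1302 CPM with it. Its log2 fold change was -0.44 (SE 0.091, adjusted p = 0.0034, edgeR). CALR, the soluble one, stood at 2152, 2259.8 and 2243 CPM without and at 2667, 2946 and 2701 CPM with doxycycline (log2 fold change 0.32, SE 0.082, adjusted p = 0.0099, edgeR). Neither gene's groups overlapped.

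Of the sensors and signalling genes, ATF6 stood at 101, 97.5 and 100.3 CPM in the uninduced lines and at 83.4, 77.0 and 74.0 CPM in the induced ones (log2 fold change -0.35, SE 0.088, adjusted p = 0.0092, edgeR). PPP1R15A (GADD34), which restarts translation after PERK has acted, stood at 244, 371 and 204 CPM without doxycycline and at 146, 167 and 184 CPM with it. The size of its fall differed between hairpins, with log2 ratios of -0.74, -1.15 and -0.15, and the fitted log2 fold change was -0.72 (SE 0.17, adjusted p = 0.0082, edgeR). The other sensors did not pass. ERN1 stood at 12.5, 11.9 and 10.02 CPM without and at 9.04, 9.49 and 8.58 CPM with doxycycline, a log2 fold change of -0.35 (SE 0.13, adjusted p = 0.057, edgeR) with no overlap. XBP1 stood at 153, 189.6 and 171 CPM without and at 123, 156 and 158 CPM with doxycycline, with overlap (log2 fold change -0.23, SE 0.10, adjusted p = 0.11, edgeR). Of 18 alternatives, ERN1 was called lower in 4 and XBP1 in 6, which for XBP1 were DESeq2, both FPKM fits, the hairpin block and both fits with length and GC offsets. EIF2AK3 stood at 25.2, 19.3 and 21.8 CPM without and at 22.4, 20.8 and 17.2 CPM with doxycycline, with overlap (log2 fold change -0.14, SE 0.12, adjusted p = 0.42, edgeR).

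In the degradation group, 4 of 8 genes fell. EDEM1 and EDEM3, mannose-trimming proteins that mark glycoproteins for disposal, had log2 fold changes of -0.50 (SE 0.14, adjusted p = 0.015, edgeR) and -0.53 (SE 0.11, adjusted p = 0.0032, edgeR). EDEM3 stood at 99.3, 77.6 and 80.4 CPM without doxycycline and at 65.6, 56.8 and 55.4 CPM with it. SEL1L, the adaptor that holds the ubiquitin ligase SYVN1, stood at 190.3, 160.1 and 163 CPM without and at 136, 125 and 112 CPM with doxycycline (log2 fold change -0.46, SE 0.099, adjusted p = 0.0039, edgeR). HERPUD1, a stress-induced scaffold of the same complex, stood at 112, 125 and 114 CPM without and at 76.6, 99.98 and 85.9 CPM with doxycycline (log2 fold change -0.42, SE 0.096, adjusted p = 0.0056, edgeR). The groups of all 4 genes were fully separated. Over the 33 genes the induced lines were all above the uninduced ones in 10 and all below in 9, against 22.1% and 21.9% of all genes. SYVN1 itself (0.13, SE 0.085), EDEM2 (0.14, SE 0.088) and the Derlins DERL1 (0.11, SE 0.084) and DERL2 (0.26, SE 0.099) had log2 fold changes above 0 that did not pass. With length and GC offsets EDEM1 and SEL1L lost their calls, while DERL1 (0.23) and DERL2 (0.48) were called higher. SYVN1 (-0.0055) and EDEM2 (-0.067) changed sign in that fit.

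The translocon genes differed as well. SEC61B, the small beta subunit of the channel, stood at 63.1, 65.9 and 68.1 CPM without and at 82.1, 109.5 and 122 CPM with doxycycline (log2 fold change 0.67, SE 0.12, adjusted p = 0.0014, edgeR). SEC61A1, the pore subunit, stood at 832, 876 and 867 CPM without and at 839.7, 761 and 829.9 CPM with doxycycline, and did not pass (log2 fold change -0.08, SE 0.077).

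**Figure D2:**
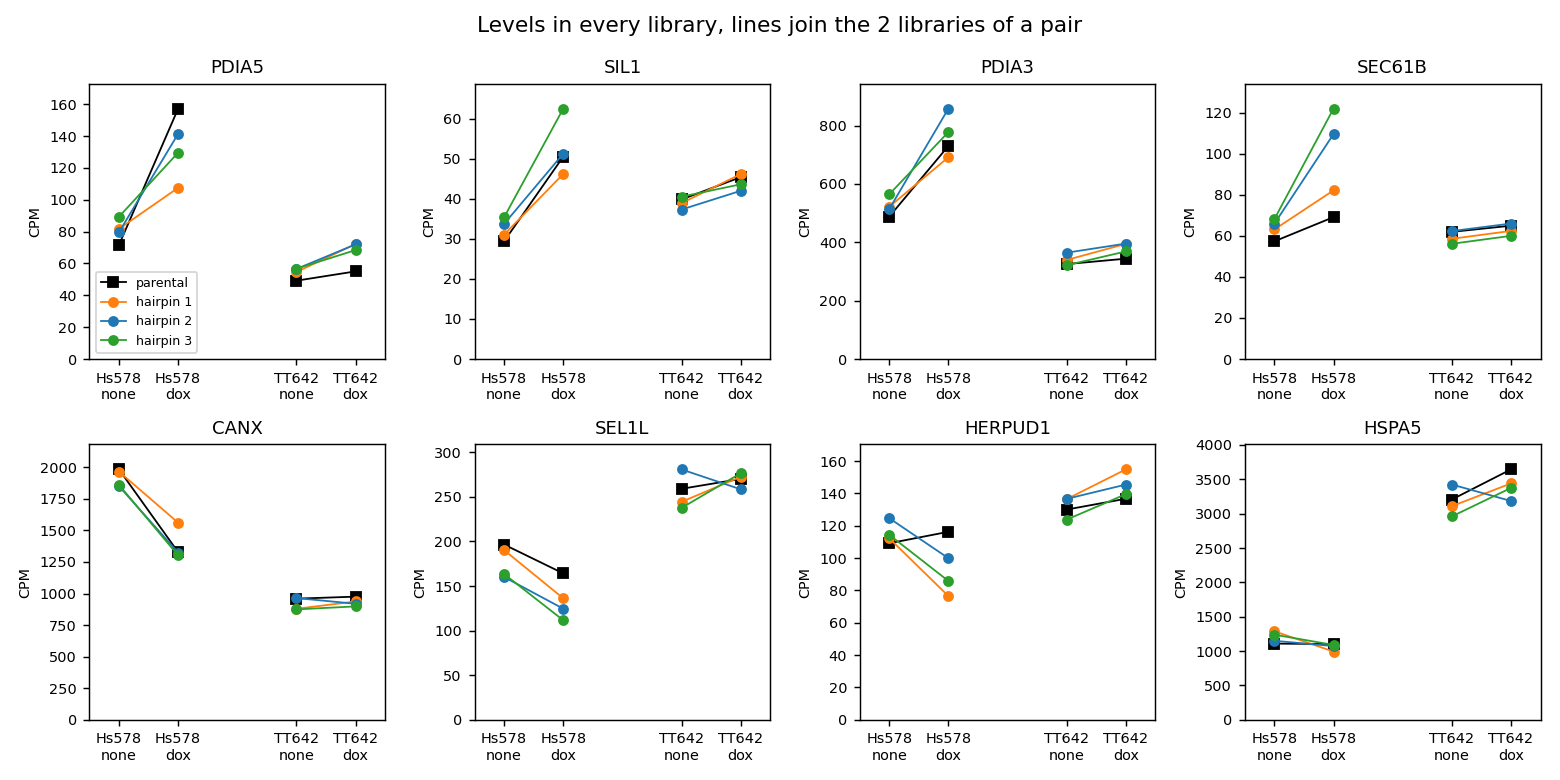
CPM (y axis, from 0) of 8 genes in all 16 libraries, with lines joining the library without doxycycline to the one with it for the parental line (black squares) and hairpins 1 to 3 (coloured circles). In Hs578 the lines of PDIA5, SIL1, PDIA3 and SEC61B go up and those of CANX and SEL1L go down in the parental line too, whereas HERPUD1 goes from 109 to 116 CPM in parental cells.

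The parental Hs578 cells, which carry no hairpin, moved the same way for most of these genes. All 10 genes called higher in the hairpin lines had a parental log2 ratio above 0, and 6 of the 7 called lower had one below 0, where all called genes shared the direction in 81.0% (higher) and 85.6% (lower). PDIA5 had its highest ratio in parental cells, from 71.6 to 157 CPM (1.13 on the log2 scale, against 0.40, 0.83 and 0.54 in the hairpin pairs). SIL1 went from 29.4 to 50.5 CPM, P4HB from 881 to 1434 CPM and CANX from 1983 to 1328 CPM in parental cells. HERPUD1 was the exception, from 109 to 116 CPM, and EDEM3 was near level, from 96.9 to 95.2 CPM. Across all 4 Hs578 pairs, 11 of the 33 genes had a ratio above 0 in every pair and 8 below 0 in every pair, against 21.8% and 22.7% of all genes.

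When the parental change was subtracted from the hairpin effect, none of the 33 genes passed edgeR's quasi-likelihood test, against 0.406% of all genes tested, and DESeq2 and the fit with the hairpin number as a block called none either. At an unadjusted p under 0.05 there were 6 (DNAJB9, PDIA4, PDIA5, ERN1, EDEM3 and HERPUD1), against 14.2% of all genes, and all 6 had a net log2 fold change below 0. The values were -0.54 (SE 0.19, adjusted p = 0.20, edgeR) for PDIA5, -0.51 (SE 0.19, adjusted p = 0.23, edgeR) for HERPUD1 and -0.58 (SE 0.25, adjusted p = 0.30, edgeR) for ERN1. The comparison rests on a single parental pair, whose spread was assumed to be that of the hairpin groups.

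The Hs578 response also moved with transcript length and GC content. Over the 13334 tested genes with an annotated transcript, the log2 fold change had a Spearman correlation across genes of -0.44 with length and 0.41 with GC content, and these genes come from the same libraries and are not independent replicates. When these genes were divided by length into 4 groups of like size, 34.1% of the group with the shortest transcripts were called higher and 2.28% lower, and in the group with the longest 4.35% were higher and 30.9% lower. The 10 listed genes that rose had a median length of 1851 bases (545 to 3727) and the 7 that fell one of 6146 bases (2378 to 7925), with median GC contents of 54.1% and 41.6%. In TT642 the correlations of the doxycycline effect were -0.06 and 0.13. With length and GC smoothed out library by library as offsets, an alternative chosen after seeing the data, 12 genes were called (7 higher and 5 lower) and 17.1% of all genes. The 9 genes called in both fits were DNAJB11, SIL1, P4HB, PDIA3 and PDIA5, which rose, and CANX, EDEM3, HERPUD1 and PPP1R15A, which fell. ATF6 (-0.04), CALR (0.13), CRELD2 (0.21), EDEM1 (-0.26), SEC61B (0.14) and SEL1L (-0.13) lost their calls, MANF (-0.07) and SDF2L1 (-0.15) lost them with a change of sign, and XBP1 (lower), DERL1 and DERL2 (higher) gained one. With the hairpin number as a block in the same fit, 9 genes were called (6 higher and 3 lower) and 19.7% of all genes, as CANX, EDEM3 and DERL1 then missed the threshold.

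**Figure D3:**
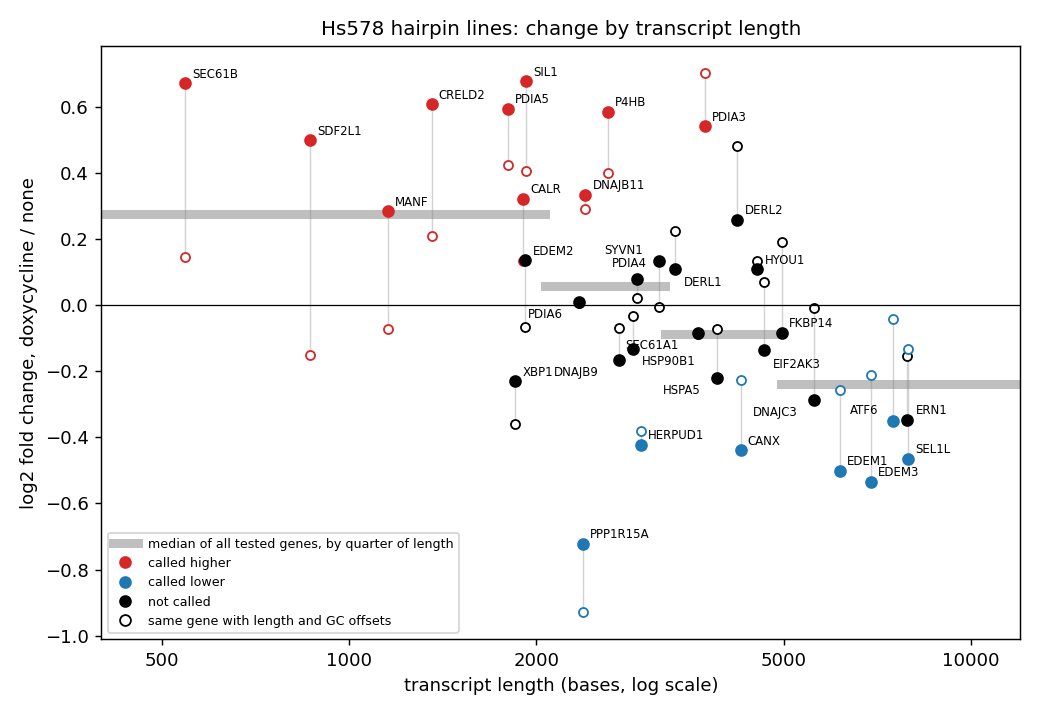
Log2 fold change with doxycycline in the Hs578 hairpin lines (y axis) against transcript length in bases (log x axis) for the 33 genes, filled and coloured by call, with open circles for the fit with length and GC offsets and grey bars for the median of all tested genes in each of 4 groups by length. The grey medians step down from 0.28 for the shortest to -0.24 for the longest transcripts, PDIA3 at 3727 bases lies above the median of its length group, and SDF2L1 and MANF cross 0 with the offsets.

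A single hairpin also carried weight. Without the libraries of hairpin 3 in both lines, 7 of the 17 calls remained and the share of all genes called was 6.02%. The 7 were SIL1, P4HB, PDIA3, PDIA5, SEC61B, PPP1R15A and EDEM3. Without those of hairpin 1 or 2, 14 of the 17 remained each time, with 19.1% and 20.1% of all genes called. Hairpin 3 had the lowest mitochondrial share of the 8 Hs578 libraries before induction (2.16%) and the highest after it (5.44%), and the part of this was not tested. PDIA3 and PDIA5 were called in all 18 alternatives. With the hairpin number as a block, 21 genes and 34.6% of all genes were called (11 of the 33 higher and 10 lower), which added DERL2, DNAJC3, ERN1 and XBP1. With relative log expression scaling in edgeR 8 rose and 10 fell (29.7% of all genes called), with DESeq2 8 rose and 11 fell (29.8%), and in limma on the deposited FPKM values with a pseudocount of 1, 6 rose and 11 fell (31.8%). On FPKM, SIL1 and P4HB lost their calls (adjusted p = 0.056 and 0.061, limma).

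In TT642 no listed gene passed edgeR's quasi-likelihood test, against 0.0285% of all genes (4 genes). At an unadjusted p under 0.05 there were 4 (CRELD2, CALR, PDIA4 and PDIA5), against 7.82% of all genes. All 4 had values above 0, and DESeq2 called CALR alone (adjusted p = 0.0054). CALR stood at 456, 473 and 453 CPM in the uninduced lines and at 594, 572 and 541 CPM in the induced ones, with no overlap (log2 fold change 0.30, SE 0.082, adjusted p = 0.28, edgeR). PDIA5 stood at 54.6, 56.5 and 56.7 CPM without and at 72.2, 72.0 and 68.4 CPM with doxycycline, again with no overlap (log2 fold change 0.34, SE 0.094, adjusted p = 0.28, edgeR). The shifts were small and mostly above 0. The median log2 fold change of the 33 genes was 0.12, and in 12 of them every induced library was above every uninduced one while in none was it below, against 8.54% and 6.31% of all genes. Over all 4 TT642 pairs, parental cells included, 17 genes had a ratio above 0 in every pair and none below 0 in every pair, against 12% and 9.61% of all genes. The median ratio of the 33 genes was 0.14, 0.09 and 0.12 in the hairpin pairs and 0.07 in the parental pair, beside 0 to 0.02 for all genes.

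HSPA5 and the sensors, which are named in both lines by rule, gave no call in TT642. HSPA5 stood at 3109, 3424 and 2959 CPM without and at 3439.5, 3185 and 3374 CPM with doxycycline, with overlap (log2 fold change 0.07, SE 0.091). XBP1 stood at 221, 220.0 and 209 CPM without and at 208, 194 and 212 CPM with doxycycline (-0.08, SE 0.10). ATF6 stood at 181, 203 and 166 CPM without and at 167, 177 and 191 CPM with doxycycline (-0.04, SE 0.086). ERN1 was at 40.2, 50.1 and 40.3 CPM without and at 37.2, 41.3 and 43.7 CPM with it, and EIF2AK3 was at 20.7, 21.6 and 20.1 CPM without and at 21.9, 23.1 and 21.8 CPM with it. In all of these but EIF2AK3 the groups overlapped.

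The difference between the lines in their response was tested directly. HERPUD1 and SEL1L passed, both lower in Hs578 relative to TT642, against 5.24% of all genes called and 2.48% called in that direction. For HERPUD1 the difference of log2 fold changes was -0.57 (SE 0.13, adjusted p = 0.036, edgeR), made of -0.42 in Hs578 and 0.15 in TT642, where it stood at 137, 137 and 124 CPM without and at 155, 146 and 139.6 CPM with doxycycline. For SEL1L it was -0.55 (SE 0.14, adjusted p = 0.042, edgeR), made of -0.46 in Hs578 and 0.08 in TT642, where it stood at 244, 281 and 238 CPM without and at 272, 258 and 276 CPM with doxycycline. Just short of the threshold were CANX (-0.46, SE 0.13, adjusted p = 0.052, edgeR) and SEC61B (0.58, SE 0.16, adjusted p = 0.053, edgeR). For CALR, whose log2 fold changes with doxycycline were alike in both lines (0.32 and 0.30), the difference was 0.02 (SE 0.12). With length and GC offsets they were 0.13 and 0.29, and the difference was -0.15 (SE 0.10). Without offsets the difference was -0.007 for HYOU1, -0.015 for EDEM2 and -0.002 for SYVN1 (SE 0.12 for each). The share of 2 in 33 is near that background. With the hairpin number as a block 7 genes passed (HERPUD1, SEL1L, CANX, DNAJC3 and EDEM3 lower, SEC61B and SIL1 higher), with 12.6% of all genes called. Leaving out hairpin 1, 2 or 3 left none of the 33, with 0.878%, 0.273% and 0.0143% of all genes called. Leaving out the induced Hs578 library of hairpin 1 alone gave 11 (14.9% of all genes called), and with length and GC offsets HERPUD1 alone was left (2.35%).

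Before induction, the 2 lines already differed in most of these genes. In the 3 uninduced hairpin lines of each, 22 of the 33 genes were higher and 5 lower in Hs578 than in TT642, at a background of 80.8% of all genes called (41% higher and 39.7% lower). The median log2 fold change was 0.86, against 0.01 over all genes. Folding genes made up most of the higher group, with 7 of 10 chaperones and cochaperones, both lectin chaperones and all 6 isomerases, and 3 of the 5 sensors and signalling genes were in the lower group. CALR stood at 2152, 2259.8 and 2243 CPM in Hs578 and at 456, 473 and 453 CPM in TT642 (log2 fold change 2.27, SE 0.085, adjusted p = 4.37e-12, edgeR). HSP90B1, the Hsp90 of the reticulum, stood at 2653, 2454 and 2704 CPM in Hs578 and at 559, 704 and 538 CPM in TT642 (2.12, SE 0.11, adjusted p = 1.34e-10, edgeR). HSPA5 ran against these, at 1288, 1149.7 and 1239 CPM in Hs578 and at 3109, 3424 and 2959 CPM in TT642 (-1.37, SE 0.092, adjusted p = 2.91e-09, edgeR).

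**Figure D4:**
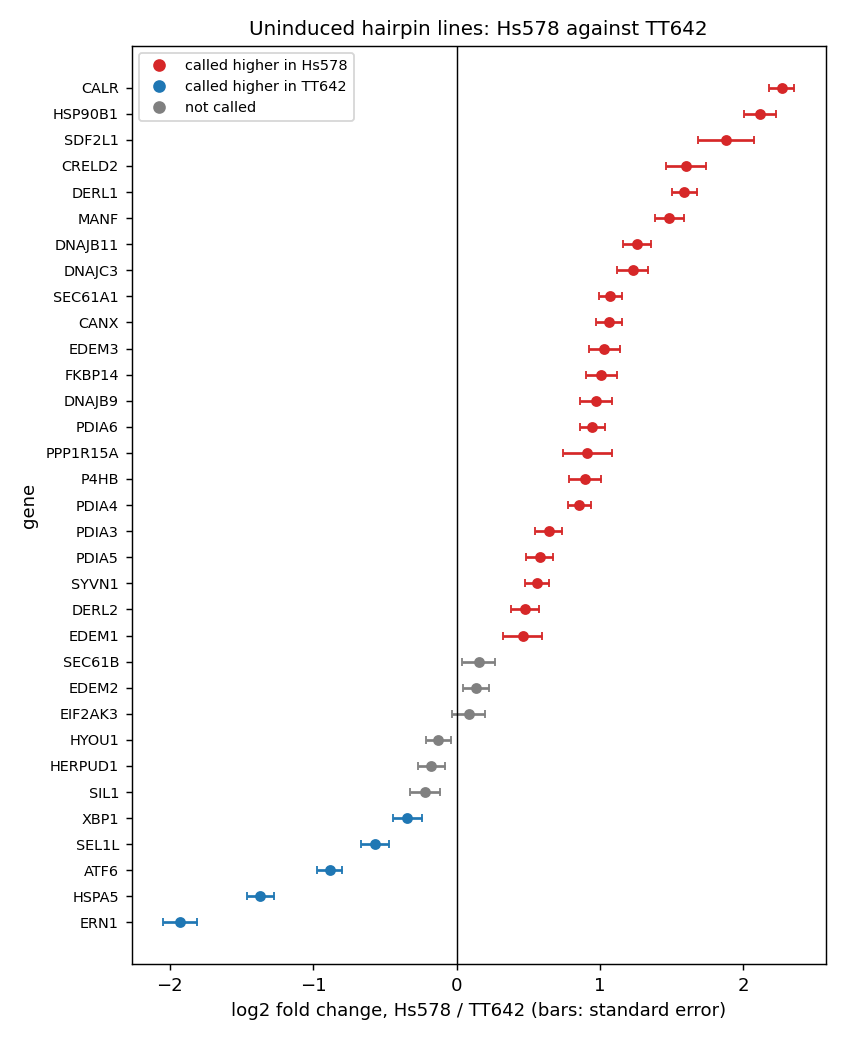
Log2 fold change of Hs578 over TT642 (x axis, bars are the standard error) for the 33 genes in the uninduced hairpin lines, 3 libraries per line, with red called higher in Hs578, blue called higher in TT642 and grey not called. CALR (2.27) and HSP90B1 (2.12) lead on the right, ERN1 (-1.93) and HSPA5 (-1.37) on the left.

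The 2 major chaperones of the reticulum thus stood in opposite order in the 2 lines. On the deposited FPKM scale, which allows for transcript length, the ratio of HSPA5 to HSP90B1 was 0.265 to 0.348 over the 8 Hs578 libraries and 3.56 to 4.53 over the 8 TT642 libraries. In Hs578 the ratio was 0.324 to 0.348 without and 0.265 to 0.283 with doxycycline, parental cells included, while in TT642 it was 3.72 to 4.23 without and 3.56 to 4.53 with it. The gene with the highest FPKM of the 33 was CALR in Hs578 (1212 to 1680 FPKM over its 8 libraries) and HSPA5 in TT642 (726 to 898 FPKM). Second place went to P4HB (726 to 1015 FPKM) and HSP90B1 (727 to 869 FPKM) in Hs578, whose ranges overlapped, and to P4HB in TT642 (375 to 641 FPKM).

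The smaller cochaperones followed CALR and HSP90B1, not HSPA5. CRELD2 stood at 28.3, 33.5 and 33.9 CPM in Hs578 and at 9.86, 10.2 and 11.6 CPM in TT642 (log2 fold change 1.60, SE 0.14). MANF stood at 114, 111 and 116 CPM in Hs578 and at 39.7, 44.0 and 37.9 CPM in TT642 (1.48, SE 0.10). DNAJB11 stood at 158, 166 and 165 CPM in Hs578 and at 67.1, 73.2 and 64.1 CPM in TT642 (1.26, SE 0.096). DNAJC3, which inhibits PERK and also acts as a cochaperone, stood at 122, 104 and 112 CPM in Hs578 and at 50.001, 48.8 and 45.6 CPM in TT642 (1.23, SE 0.11). The groups of these 4 genes were far apart. SDF2L1 was low in both lines, at 13.1, 13.3 and 14.5 CPM in Hs578 and 3.80, 3.26 and 4.06 CPM in TT642 (1.88, SE 0.20). HYOU1 (-0.13, SE 0.088) and SIL1 (-0.22, SE 0.11), both nucleotide exchange factors of HSPA5, did not pass.

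Among the other roles, DERL1, a channel component of degradation, stood at 208, 201 and 215 CPM in Hs578 and at 69.6, 75.3 and 62.4 CPM in TT642 (log2 fold change 1.59, SE 0.086). SEC61A1 stood at 832, 876 and 867 CPM in Hs578 and at 419.5, 404 and 401 CPM in TT642 (1.07, SE 0.077). The isomerases were higher in Hs578 by log2 fold changes of 0.58 (PDIA5) to 1.01 (FKBP14). ERN1 showed the widest gap in the other direction, at 12.5, 11.9 and 10.02 CPM in Hs578 and 40.2, 50.1 and 40.3 CPM in TT642 (-1.93, SE 0.12, adjusted p = 1.08e-09, edgeR). ATF6 (-0.88, SE 0.087), SEL1L (-0.57, SE 0.098) and XBP1 (-0.34, SE 0.10) were also lower in Hs578, while EIF2AK3 did not pass (0.08, SE 0.12). The parental cells, which were not in this fit's contrast, stood in the same order, with HSPA5 at 1108 CPM in Hs578 and 3205 CPM in TT642 and CALR at 1990.5 and 413 CPM.

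A further comparison set hairpin lines without induction beside parental cells in TT642. Between the 3 uninduced hairpin lines and the parental cells, none of the 33 genes passed edgeR's quasi-likelihood test, against 0.919% of all genes, and DESeq2 called none. At an unadjusted p under 0.05 there were 3 (CRELD2, PDIA4 and SYVN1), against 12% of all genes, with log2 fold changes of 0.57 (SE 0.21), 0.25 (SE 0.12) and 0.38 (SE 0.12). This comparison rests on 1 parental library.

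The neighbouring machinery of the reticulum was read from lists that do not contain the 33 genes. In the Hs578 hairpin lines with doxycycline, 6 of 18 genes of translocation and signal peptidase rose and 1 fell, where 15.2% of all genes rose and 14.1% fell. That background holds for every list below in the fit without length and GC offsets. Those named by rule were SEC61G, the gamma subunit of the channel (log2 fold change 0.79, SE 0.13, adjusted p = 0.0010, edgeR), and SSR4 (0.74, SE 0.12, adjusted p = 0.00089, edgeR) and SSR2 (0.57, SE 0.083, adjusted p = 0.00060, edgeR) of the translocon-associated complex. The gamma and beta subunits of the channel thus rose, while the pore subunit did not pass. SEC61G and SSR4 also differed from TT642 (0.82, adjusted p = 0.033, and 0.70, adjusted p = 0.035, edgeR), calls that were lost in 14 and 12 of 23 alternatives, length and GC offsets among them. Of 18 genes of N-glycosylation and glycan quality control, 6 rose and 3 fell, among them PRKCSH, a subunit of glucosidase II (0.60), and OSTC of the oligosaccharyltransferase (0.50), which rose, and MCFD2, a cargo receptor partner (-0.55), which fell. The other degradation genes rose in 7 and fell in 2 of 18 tested, where the list has 19, with SELK (0.53), OS9 (0.51) and UFD1L (0.44) higher.

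Oxidative folding genes moved both ways, with 3 of 14 higher and 4 lower, among them the peroxiredoxin PRDX4 (0.43) and ERP29 (0.33) higher and DNAJC10 (-0.35) lower. In vesicle traffic between reticulum and Golgi 6 of 20 rose and 3 fell, with the KDEL receptors KDELR3 (0.78) and KDELR1 (0.40), which return chaperones to the reticulum, and the coat protein SEC13 (0.36) among those that rose. Of 16 heat shock genes 4 rose and 1 fell, with HSPB1 (0.75) and HSPE1 (0.62) higher and HSPH1 (-0.46) lower. In the PERK arm 6 of 15 were lower and none higher, led by ATF3 (-2.88), SESN2 (-1.30) and CHAC1 (-1.10), and 4 of the 15 were lower in Hs578 by the test of the difference from TT642, where 2.48% of all genes were. The difference in ATF3 lost its call in 17 of 23 alternatives, that in CHAC1 in 2 and that in SESN2 in 1. This list was known to fall in these data and gives no independent evidence of it. With length and GC offsets 17.1% of all genes were called in the Hs578 comparison. In that fit the numbers called were 7 of 18 in translocation, 6 of 18 in glycosylation, 5 of 18 in degradation, 1 of 14 in oxidative folding, 4 of 20 in vesicle traffic, 1 of 16 in heat shock and 10 of 15 in the PERK arm. Of the genes named here, PRDX4, ERP29, KDELR1, SEC13, HSPB1, HSPE1 and HSPH1 lost their calls with these offsets, and DNAJC10 changed sign. In TT642 with doxycycline no gene of any of these lists passed edgeR's test. The counts for Hs578 do not separate the hairpins from doxycycline itself. Net of the single parental Hs578 pair, the median log2 fold change was 0.11 in translocation, -0.03 in glycosylation, 0.17 in degradation and -0.01 in oxidative folding. It was -0.16 in vesicle traffic, 0.18 in heat shock and -0.42 in the PERK arm. In Hs578 the summed level of 8 mesenchymal markers was 21110 to 23889 CPM without and 30582 to 43978 CPM with doxycycline, parental cells included, and its part in the results on folding genes was not tested.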

How the data were processed

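RNA sequencing libraries were made from polyadenylated RNA with a stranded kit, per the labels' protocols. The authors deposited whole-number read counts per gene symbol and FPKM values (fragments scaled by transcript length and library size), made on build hg19 according to the submitters' processing notes. No aligner or counting tool, nor whether strand was used, is given in the sources used here, so reads of overlapping genes cannot be told apart. Counts of all 16 libraries were fitted with edgeR 4.0.16 in R 4.3.3 (quasi-likelihood, TMM scaling, expression filter on 8 groups, robust moderation, 8 residual degrees of freedom), tested two-sided and called at a Benjamini-Hochberg adjusted p under 0.05. The script was tested on simulated data. Levels are TMM-scaled CPM, and pair ratios used a prior count of 2. No 2 libraries agreed within sampling noise (lowest chi-square per degree of freedom 5.35). Genes and lists were chosen with earlier results of these data known. Per-library values are given for genes called in a comparison (up to 12 by smallest p) and for HSPA5, XBP1, ATF6, ERN1 and EIF2AK3, and from each other list up to 3 called genes with the widest change and a mean log2 CPM of at least 2. Other values of the 33 genes are printed so that each is accounted for.

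Libraries with the same hairpin number were taken to come from 1 derived line, per their titles, so the numbers pair them. As a check, correlations between the deviations of libraries with a shared number were 0.13, -0.03 and 0.00 for Hs578 and 0.44, 0.42 and 0.42 for TT642. Alternatives were relative log expression scaling, no filter, DESeq2 1.42.0, limma 3.58.1 on log2(FPKM + 1) and log2(FPKM + 0.1), the hairpin number as a block, fits to fewer libraries and leaving out libraries. Length and GC offsets used the main transcript of each gene in GENCODE release 29 (GRCh38), for 95.0% of tested genes and all 33 listed genes.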

Additional observations from a re-analysis of the deposited data

Results flagged for a closer look

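In 2 of the 33 genes the doxycycline effect differed between the lines by a test of the difference itself, a share near the 5.24% of all genes called in that test. The effect on HERPUD1 in Hs578 minus that in TT642 was -0.57 on the log2 scale (adjusted p = 0.036, edgeR's quasi-likelihood test), with 3 of 3 hairpin pairs below 0 in Hs578 and 3 of 3 above 0 in TT642. The effect on SEL1L differed by -0.55 (adjusted p = 0.042, edgeR's quasi-likelihood test), with 3 of 3 hairpin pairs below 0 in Hs578 and 2 of 3 above 0 in TT642. In the parental pairs, the log2 ratio of HERPUD1 was 0.09 in Hs578 and 0.07 in TT642, and that of SEL1L was -0.26 and 0.06. The calls were lost in 11 (HERPUD1) and 14 (SEL1L) of 23 alternatives.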

How the results depend on the processing

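In the Hs578 comparison the number of listed genes called ran from 7 to 19 when hairpins or single libraries were left out (6.02% and 34% of all genes called in the fits with 7 and 19), and was 9 with length and GC offsets and the replicate block together. The median log2 fold change of the 33 genes was -0.098 and -0.10 on FPKM with a pseudocount of 1 and 0.1. Over all genes it was -0.075 and -0.12 in these 2 fits. With length and GC offsets the log2 fold change changed sign for MANF (-0.073), SDF2L1 (-0.15), EIF2AK3 (0.071) and DNAJC10 (0.046), and with the replicate block added it was -0.071, -0.15, 0.070 and 0.044. EDEM2 (-0.067), SYVN1 (-0.0055) and FKBP14 (0.19) changed sign as well, with values of -0.068, -0.0028 and 0.19 when the block was added. In TT642, DESeq2 called 1 gene where edgeR called none. Leaving out hairpins or libraries moved the TT642 median from 0.087 to 0.14, and ATF6 and ERN1 changed sign in some of these fits, with ranges of -0.16 to 0.045 and -0.21 to 0.017. For the difference between lines, the calls numbered 9 with DESeq2 (10.2% of all genes), 7 with the replicate block (12.6%), 1 with length and GC offsets (2.35%), and 0 to 11 with hairpins or libraries left out (0.0143% to 14.9%). The median of Hs578 against TT642 was 0.63 and 0.64 on FPKM with a pseudocount of 1 and 0.1, and 0.70 with the offsets. Over all genes it was -0.11, -0.15 and -0.13 in these fits. EDEM1 lost its call there on FPKM and with the offsets. In the same fits HERPUD1, HYOU1 and SIL1 gained one, lower in Hs578, so that 8 of the 33 genes were called lower. HERPUD1 and SIL1 also gained one in the fit to the compared libraries alone. The causes were not tested. For the 33 genes, the pairing changed no call in the comparison net of parental cells or in TT642. The share of all genes called went from 0.406% to 0.998% in the former and from 0.0285% to 0.328% in the latter.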
